A study of Mus musculus with 36 samples.

Results

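The connexin genes of the working and conducting heart were followed through RNA-Seq of 36 mouse libraries. The group was set by gene symbol and held 6 genes, Gja1, Gja5, Gja3, Gja4, Gjc1 and Gjd3, of the 55291 symbols quantified. Each of the 6 had a row in the count table and in the TPM table (a transcript level scaled for transcript length and library size). All 6 passed the filter on low counts and were among the 19231 genes tested, although Gjd3 held at most 10 reads in any ventricular library.

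Left ventricles and atria came from CUG960 mice, in which doxycycline (dox) induces an RNA with expanded CUG repeats in the heart, as a model of myotonic dystrophy type 1. Every mouse, the uninduced ones included, had the genotype TREDT960I (Hom)/MHCrtTA (Hem): a dox-responsive transgene with interrupted CTG repeats in a human DMPK context, and the rtTA activator under the cardiomyocyte Myh6 promoter. CUG960 +dox mice received dox feed from postnatal day 1 until tissue was taken at 21 weeks of age, CUG960 -dox mice received none, and CUG960 +/-dox mice were taken off dox at 9 weeks. In the MBNL1, MBNL2 and MBNL1+MBNL2 mice dox feeding went on, and they were given, through the tail vein at 9 weeks, AAV9-3XFLAG-MBNL1, AAV9-3XMYC-MBNL2 or both, which carry human cDNAs under a human cardiac troponin T (TNNT2) promoter. Each of the 12 groups of chamber and cohort had 3 libraries. The chambers of a cohort came from the same 3 mice, and the libraries analysed here held no cohort with a control virus, so virus and MBNL protein cannot be told apart. They also held no mice on dox without the repeat transgene. The repeat RNA and dox itself, with the rtTA that it activates, therefore cannot be told apart in the comparisons of -dox or +/-dox with +dox mice. The repeat RNA depends on a promoter of cardiomyocytes, and the libraries are of whole tissue, in which fewer cells of a type and less RNA per cell cannot be told apart.

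Connexins assemble as hexamers in the cell membrane, and the hexamers of neighbouring cells dock to form gap junctions, the channels through which ions pass and the action potential spreads from cell to cell. Gja1 encodes the main connexin of working myocytes, and Gja5 encodes a fast-conducting connexin of atrial myocytes, of the bundles and Purkinje fibers and of arterial endothelium. Gjc1 and Gjd3 encode low-conductance connexins known from the nodes and the conduction system, Gja4 an endothelial connexin, and Gja3 a connexin best known from lens fibers.

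The libraries held 55031987 to 97091184 expected counts in total. One library, ventricle MBNL1 replicate 1, listed 16885 genes above 0 against 20578 to 24041 in the others. Replicate 3 of every cohort but MBNL1+MBNL2 was female by Xist and, with all 3 MBNL1+MBNL2 mice, carried library numbers of a second range, so sex and library range cannot be told apart in those 5 cohorts. Replicates 1 and 2 of the same 5 cohorts, all male, are called set A here. The MBNL1+MBNL2 mice, all male, have no set A library. Their comparisons therefore also differ in the mix of library range and sex, and could not be run within set A. The chamber labels held: the summed TPM of 6 atrial cardiomyocyte markers was 40301 to 61795 in atria and 96.8 to 1011 in ventricles, and that of 4 ventricular cardiomyocyte markers was 19971 to 28116 in ventricles and 288 to 1104 in atria. The mouse Mbnl1 gene, to which part of the reads of the human cDNA may align, averaged 49.6 TPM in +dox and 62.1 TPM in MBNL1 ventricles. Mbnl2 averaged 100.1 TPM in +dox and 150.9 TPM in MBNL2 ventricles. In atria the rises were smaller. Mbnl1 averaged 59.9 TPM in +dox and 70.2 TPM in MBNL1 atria, and Mbnl2 135.3 TPM in +dox and 156.3 TPM in MBNL2 atria.

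In the mm10 annotation Gja1 lies on chromosome 10 (56377330 to 56402513, plus strand) and Gja5 on chromosome 3 (96904693 to 97077416, plus strand). Gja3 lies on chromosome 14 (57034460 to 57058100, minus strand), Gja4 on chromosome 4 (127311421 to 127314039, minus strand), and Gjc1 (102799579 to 102819700) and Gjd3 (98982180 to 98983016) both on the minus strand of chromosome 11. The span of Gja5 overlaps genes of the other strand, and the strand setting of the counting is not given in the sources used here. Of these, Gpr89 was at 9.5 to 11.97 TPM in atria and 5.8 to 7.97 TPM in ventricles, and 4930573H18Rik and 9230114J08Rik were at 0.1 TPM or less in every library.

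The sequences just upstream of the RefSeq starts of Gja5 and Gja1 (build GRCm38.p6) are shown because these are the members called between atrial cohorts. The Gja5 window is chr3:97032152-97032401 on the plus strand, inside the annotated span of Gja5 and free of annotated exons. The Gja1 window is chr10:56377050-56377299 on the plus strand, just before the annotated gene and also free of exons. Capitals mark matches, on either strand, to letters bound by factor families known for connexin genes. For T-box factors the letters searched were AGGTGT, on either strand. For NKX2 factors the letters searched were AAGTG, and for GATA factors they were AGATAA. For SP1 and its relatives the letters searched were GGGCGG. The motifs did not overlap one another.
Gja5: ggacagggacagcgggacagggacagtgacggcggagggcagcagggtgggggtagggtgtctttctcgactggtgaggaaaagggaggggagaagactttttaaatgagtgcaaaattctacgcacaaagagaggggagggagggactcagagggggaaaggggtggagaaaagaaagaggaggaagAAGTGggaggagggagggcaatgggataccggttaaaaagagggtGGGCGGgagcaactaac
Gja1: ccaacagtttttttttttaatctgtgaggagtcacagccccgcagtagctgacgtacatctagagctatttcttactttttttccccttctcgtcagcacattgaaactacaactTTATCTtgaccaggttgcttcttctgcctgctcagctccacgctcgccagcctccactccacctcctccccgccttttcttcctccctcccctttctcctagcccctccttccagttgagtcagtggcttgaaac
The Gja5 window held one NKX2 match (bases 62 to 58 before the start) and one SP1 match (bases 17 to 12 before the start). The Gja1 window held one GATA match on the minus strand (bases 135 to 130 before the start), and neither window held the T-box letters. Of all 32851 promoter windows of the same length, 40.7% held the NKX2 letters, 32.7% SP1, 9.99% GATA and 11.8% T-box. These are letter matches and not sites of binding.

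The question of the comparisons with CUG960 +dox mice is what each cohort's hearts express once the repeat RNA is absent, withdrawn or met with added MBNL protein. A gene was called when its adjusted p from the edgeR quasi-likelihood test was under 0.05 and its fold change was at least 1.5. All of these comparisons share the +dox libraries. Groups of 3 libraries often did not overlap in normalized counts, in either direction. Against +dox atria this held for 36.6% of all genes in -dox and 34.1% in +/-dox mice. With MBNL1, MBNL2 and both it held for 17.4%, 11.4% and 17.6%. Against +dox ventricles the shares were, in the same order, 33.6%, 38.0%, 23.2%, 27.8% and 22.5%.

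Atrial Gja5 was the member that separated the cohorts most. In +dox atria it was at 8.16, 8.09 and 10.97 TPM. In -dox atria it was at 45.44, 39.93 and 46.26 TPM, and in +/-dox atria at 19.54, 28.58 and 37.81 TPM. Every library without ongoing dox was above every +dox library, and the +/-dox libraries lay between the other groups and overlapped neither. The +dox mean of 9.07 ± 1.64 TPM (SD, n = 3) was 20.7% of the -dox mean of 43.9 ± 3.44 TPM (SD, n = 3).

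On normalized counts atrial Gja5 rose 4.97-fold in -dox against +dox mice (95% interval 3.66 to 6.75; log2 fold change 2.31, SE 0.22; adjusted p 1.5e-08). It rose 3.3-fold in +/-dox mice (interval 2.44 to 4.45; log2 fold change 1.72, SE 0.21; adjusted p 2.1e-06). The rise was of like size in both library ranges: within the male set A the log2 fold change was 2.42 for -dox (adjusted p 2.0e-05) and 1.62 for +/-dox (adjusted p 0.0005), and between single replicate 3 libraries the log2 differences were 2.11 and 1.86. The -dox and +/-dox atria, whose libraries did not overlap, differed by 0.59 on the log2 scale (interval 0.17 to 1.01), and the adjusted p of 0.78 missed the threshold. The same comparison called 0.0104% of all genes tested, and in it the libraries of 12.6% of all genes did not overlap in normalized counts.

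In the atria of the MBNL cohorts Gja5 lay at 5.84 to 11.62 TPM, near the +dox libraries. The MBNL1 libraries were at 8.46, 6.83 and 9.15 TPM, the MBNL2 libraries at 6.78, 6.91 and 11.62 TPM, and the MBNL1+MBNL2 libraries at 7.07, 5.84 and 6.97 TPM. The MBNL1 and MBNL2 ranges overlapped that of +dox, whereas all 3 MBNL1+MBNL2 libraries lay below it. The group means were 18.6%, 19.2% and 15.1% of the -dox mean.

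None of these Gja5 differences from +dox passed the test. The log2 fold change was -0.17 with MBNL1 (interval -0.60 to 0.26, adjusted p 0.95), -0.08 with MBNL2 (interval -0.51 to 0.34, adjusted p 1.0) and -0.49 with both (interval -0.92 to -0.06, adjusted p 0.41). Each interval lies below a rise of the size seen in -dox or +/-dox mice. Set against +/-dox atria, Gja5 was 3.71-fold lower with MBNL1 (adjusted p 2.6e-06), 3.49-fold lower with MBNL2 (adjusted p 1.9e-06) and 4.64-fold lower with both (adjusted p 1.3e-07), and all 3 differences were called.

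**Figure D1:**
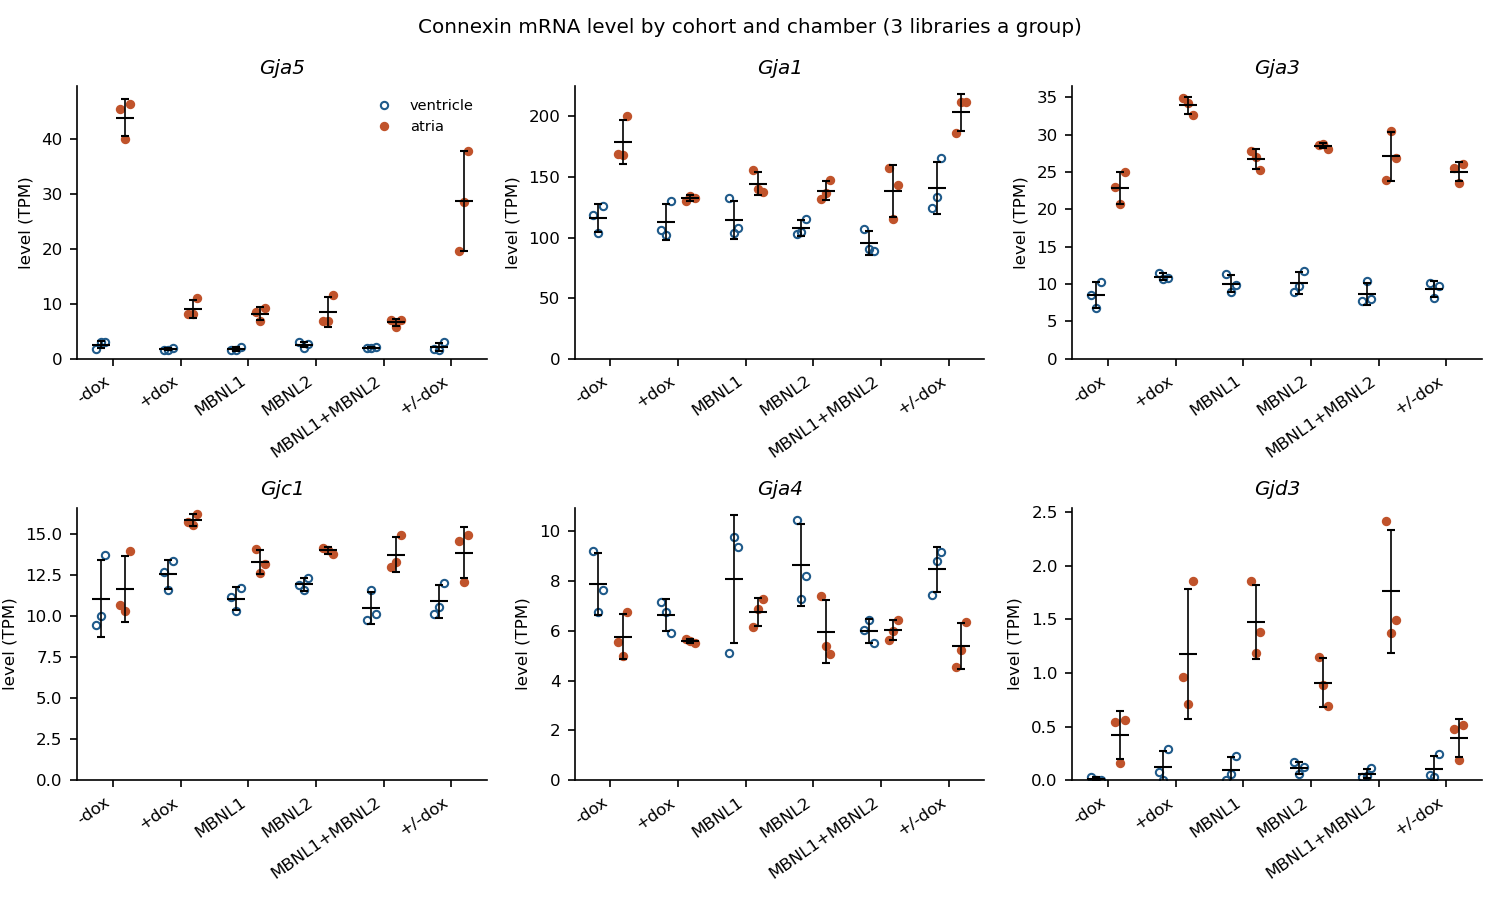
Level of each connexin gene in TPM (vertical axes, 1 panel per gene) in the 6 cohorts, for ventricles and atria; points are libraries, and bars and whiskers are the mean and SD of 3. The atrial Gja5 points of the -dox and +/-dox cohorts (19.54 to 46.26 TPM) lie above those of the other 4 cohorts (5.84 to 11.62 TPM), while Gja1 is the highest member in every group.

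Ventricular Gja5 was scarce in every cohort, at 1.57 to 3.01 TPM (226 to 549 reads per library). The +dox libraries were at 1.63, 1.66 and 1.94 TPM, and the -dox libraries at 1.75, 2.96 and 2.95 TPM. They overlapped in TPM, although not in normalized counts. The -dox difference was 0.59 on the log2 scale (SE 0.22, interval 0.14 to 1.04), with an adjusted p of 0.058 by edgeR and 0.020 by DESeq2. With MBNL2 the ventricular libraries were at 3.01, 1.99 and 2.66 TPM, above all +dox libraries, with a log2 fold change of 0.41 and an adjusted p of 0.28. With MBNL1+MBNL2 and in +/-dox mice the log2 fold changes of Gja5 were 0.12 and 0.25 (adjusted p 0.81 and 0.47), and with MBNL1 it was -0.01 (adjusted p 0.98).

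The response of Gja5 differed between the chambers. The atrial log2 change in -dox against +dox exceeded the ventricular one by 1.73 (SE 0.30, interval 1.11 to 2.35; adjusted p 0.0023), a test that called 1 of the 6 members and 0.764% of all genes. For +/-dox against +dox the excess was 1.47 (SE 0.30, interval 0.85 to 2.09; adjusted p 0.02), again for 1 of 6 members and for 0.489% of all genes. This second call was lost without any 1 of 5 libraries (ventricle +/-dox replicate 1 or 2, atria +dox replicate 1 or 2, atria +/-dox replicate 3), where the excess was 1.27 to 1.44. For Gja1 the chamber difference was 0.38 for -dox and 0.35 for +/-dox (adjusted p 0.32 and 0.35), and it was not called.

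Gja1 was by far the most abundant connexin of both chambers, and in -dox and +/-dox atria it differed from +dox by less than Gja5 did. In atria its +dox libraries were at 129.89, 134.63 and 132.94 TPM, its +/-dox libraries at 186.01, 212.24 and 212.06 TPM and its -dox libraries at 168.94, 167.82 and 200.08 TPM. All 6 libraries of the latter groups were above the +dox range. Gja1 rose 1.6-fold in +/-dox atria (interval 1.36 to 1.88; adjusted p 0.0001). In -dox atria it was 1.38-fold higher (interval 1.17 to 1.62; adjusted p 0.0042), which is under the fold cutoff.

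The atrial Gja1 means of the MBNL cohorts were 145 ± 9.66, 139 ± 8.12 and 139 ± 21.3 TPM (SD, n = 3 each) for MBNL1, MBNL2 and MBNL1+MBNL2. Their log2 fold changes from +dox were 0.11, 0.10 and 0.01 (adjusted p 0.92, 1.0 and 0.98), with intervals that all held 0 and ended at 0.34 or lower. Against +/-dox atria, Gja1 was 1.58-fold lower with MBNL1+MBNL2 and was called (adjusted p 0.00036). It was 1.48-fold lower with MBNL1 and 1.5-fold lower, just under the cutoff, with MBNL2 (adjusted p 0.0024 and 0.0008). The call with MBNL1+MBNL2 was lost on log2(TPM + 1), at a log2 fold change of -0.56. It was also lost without MBNL1+MBNL2 replicate 2 (-0.55) or +/-dox replicate 2 (-0.57). With MBNL1 and with MBNL2, Gja1 gained a call when some single libraries were left out.

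In ventricles Gja1 was at 106.08, 102.51 and 129.87 TPM in +dox, 118.29, 103.53 and 126.36 TPM in -dox and 124.13, 133.81 and 165.5 TPM in +/-dox mice. The -dox range lay inside that of +dox, and +/-dox overlapped it. The log2 fold change was 0.08 for -dox (interval -0.15 to 0.31, adjusted p 0.68) and 0.33 for +/-dox (adjusted p 0.034, under the fold cutoff). The MBNL1+MBNL2 ventricles had the lowest mean, 95.5 ± 10.1 TPM (SD, n = 3), and were called lower than +/-dox ventricles (1.54-fold, adjusted p 0.0023) but not lower than +dox ventricles (log2 fold change -0.30, adjusted p 0.10). The call against +/-dox was lost without MBNL1+MBNL2 replicate 2 or +/-dox replicate 3.

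Across the members, the test called 1 of 6 (Gja5) in -dox against +dox atria, where 5.23% of all genes were called, and 2 of 6 (Gja1 and Gja5) in +/-dox against +dox atria, where 3.99% were. The median log2 fold change over the 6 was -0.17 and -0.07. The members thus did not move one way as a group. In the atria of the MBNL1, MBNL2 and MBNL1+MBNL2 cohorts 0 members were called against +dox, with 2, 0 and 3 at an unadjusted p under 0.05 by edgeR and 0 called by DESeq2, and the calls over all genes were 0.13%, 0.0052% and 0.26%. In ventricles 0 members were called in any cohort against +dox, with 3 in -dox, 3 in +/-dox, 1 in MBNL1, 2 in MBNL2 and 3 in MBNL1+MBNL2 at an unadjusted p under 0.05. There DESeq2 called 1 member, Gja5, in -dox and 0 in the other cohorts, and the calls over all genes were 7.6%, 6.6%, 2.66%, 1.52% and 2.65%.

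Against +/-dox mice, whose libraries these comparisons share, 1 member (Gja5) was called in the atria of the MBNL1 and of the MBNL2 cohort and 2 (Gja1 and Gja5) in those of the MBNL1+MBNL2 cohort, where 1.21%, 3.24% and 1.71% of all genes were called. In ventricles 1 member (Gja1) was called with MBNL1+MBNL2, where 0.53% of all genes were. There 0 members were called by edgeR or DESeq2 in -dox, MBNL1 and MBNL2 mice, with 2, 1 and 1 at an unadjusted p under 0.05, and 0.0312%, 0.868% and 1.57% of all genes were called. In the test of a chamber difference in the change from +dox, 0 members were called by edgeR or DESeq2 for MBNL1, MBNL2 and MBNL1+MBNL2, with 0 at an unadjusted p under 0.05, beside 0.0312%, 0.0364% and 0.0728% of all genes.

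**Figure D2:**
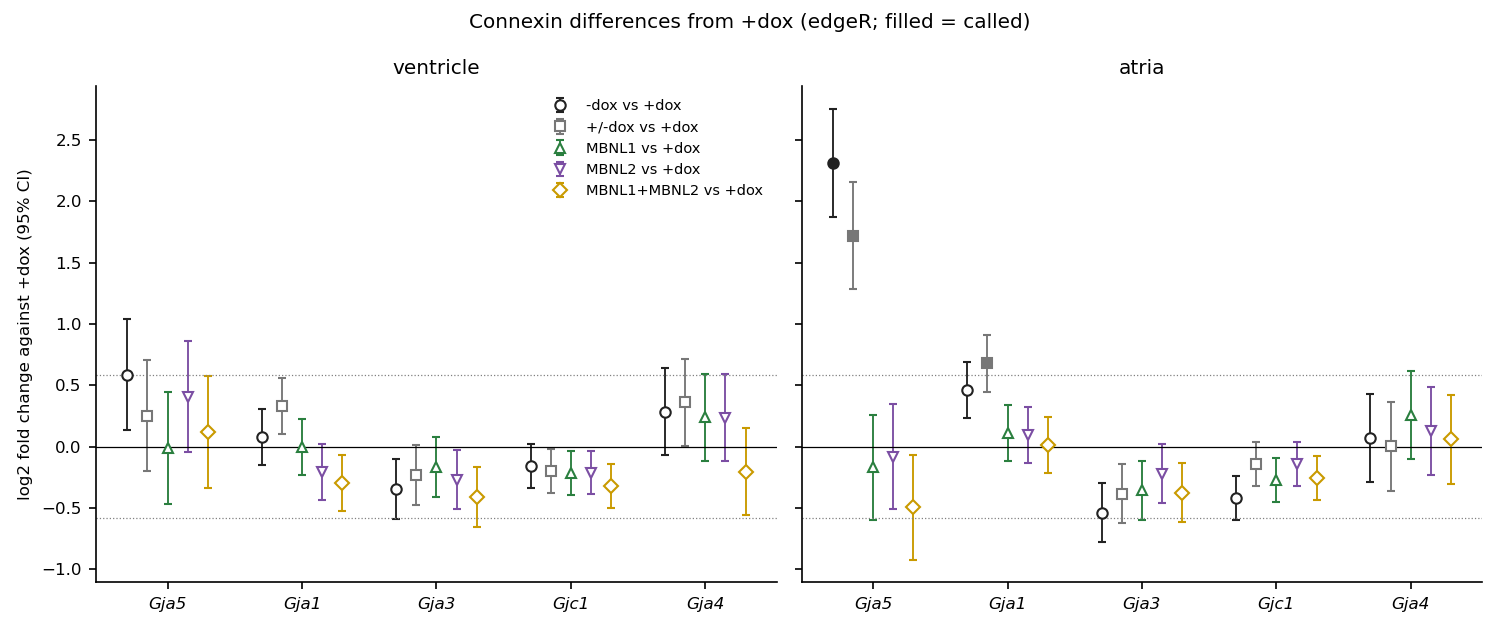
Log2 fold change from CUG960 +dox of 5 connexin genes (Gjd3, with few reads, is left out) in each cohort, for ventricles and atria; points are edgeR estimates, bars are 95% intervals, dotted lines mark a 1.5-fold change and filled points were called. Filled points are atrial Gja5 in -dox (2.31) and +/-dox (1.72) and atrial Gja1 in +/-dox (0.68).

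Gja3, the lens connexin, was the runner-up in the atria of +dox mice and ran opposite to Gja5. Its atrial libraries were at 34.91, 34.27 and 32.6 TPM in +dox, 25.53, 23.6 and 26.08 TPM in +/-dox and 22.98, 20.68 and 25.0 TPM in -dox mice. The +dox libraries stood above those of all other atrial cohorts. Gja3 was 1.45-fold lower in -dox atria (log2 fold change -0.54, SE 0.12; adjusted p 0.0016) and 1.3-fold lower in +/-dox atria (log2 fold change -0.38; adjusted p 0.028), both under the fold cutoff. Within set A the -dox difference was -0.63 and was called (adjusted p 0.0021), and between the replicate 3 libraries it was -0.35.

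With MBNL1 the atrial Gja3 libraries were at 27.89, 27.08 and 25.28 TPM, with MBNL2 at 28.69, 28.82 and 28.13 TPM and with both at 23.95, 30.49 and 26.95 TPM. Here every library of the MBNL cohorts lay below the +dox range, which for Gja5 held only with MBNL1+MBNL2. In normalized counts the libraries of 17.4%, 11.4% and 17.6% of all genes did not overlap in these 3 comparisons. The log2 fold changes were -0.36, -0.22 and -0.38, and their adjusted p-values of 0.26, 1.0 and 0.18 missed the threshold. Against +/-dox atria the 3 log2 fold changes of Gja3 were 0.03, 0.16 and 0.01 (adjusted p 0.96, 0.43 and 0.99). In ventricles Gja3 was at 10.74 to 11.49 TPM in +dox and 6.76 to 10.25 TPM in -dox libraries, a log2 fold change of -0.35 (adjusted p 0.036), and it was at -0.41 with MBNL1+MBNL2 (adjusted p 0.03), both under the fold cutoff.

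Gjc1, of the nodes and conduction system, was also highest in +dox atria. Its libraries were at 15.74, 15.58 and 16.24 TPM in +dox and 10.7, 10.33 and 13.97 TPM in -dox atria. The groups did not overlap, and the log2 fold change was -0.42 (SE 0.09; adjusted p 0.0011), under the fold cutoff. It was -0.55 within set A and -0.19 between the replicate 3 libraries. In the atria of the MBNL1, MBNL2 and MBNL1+MBNL2 cohorts every library was below the +dox range, at 12.65 to 14.06, 13.77 to 14.17 and 12.96 to 14.94 TPM, and the log2 fold changes of Gjc1 were -0.27, -0.15 and -0.25 (adjusted p 0.24, 1.0 and 0.25). Ventricular Gjc1 was at 9.44 to 13.74 TPM, and its largest difference from +dox there was -0.32 with MBNL1+MBNL2 (adjusted p 0.02), under the fold cutoff.

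Gja4, the endothelial connexin, was at 4.55 to 7.41 TPM in atria and 5.11 to 10.45 TPM in ventricles. In +dox atria its libraries were at 5.68, 5.58 and 5.52 TPM and in -dox atria at 5.55, 4.97 and 6.76 TPM. The groups overlapped, and the log2 fold change was 0.07 (interval -0.29 to 0.43; adjusted p 0.84). Its ventricular extremes, 5.11 and 10.45 TPM, were single libraries of the MBNL1 and MBNL2 cohorts, and no cohort was called against +dox in either chamber.

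Gjd3, the least abundant member, held 5 to 77 reads per atrial library. It was at 0.96, 0.71 and 1.86 TPM in +dox, 0.48, 0.19 and 0.51 TPM in +/-dox and 0.54, 0.16 and 0.56 TPM in -dox atria. These low counts did not overlap between +dox and either other group, and the log2 fold changes of -1.42 in -dox (interval -2.88 to 0.04) and -1.50 in +/-dox mice (interval -2.98 to -0.02) both had an adjusted p of 0.19. The atria of the MBNL1 and MBNL1+MBNL2 cohorts held 143 and 159 reads over 3 libraries and those of the MBNL2 cohort 88, against 108 in +dox and 32 in +/-dox atria, and the adjusted p-values against +/-dox were 0.16, 0.08 and 0.33. In the ventricles Gjd3 had 0 reads in 4 of 18 libraries, which allows up to 3 reads in each, and the adjusted p of its -dox difference, 1 read against 14 over 3 libraries each, was 0.087.

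The order of the members by TPM differed between chambers and, for Gja5, between cohorts. In ventricles of all cohorts it was Gja1, Gjc1, Gja3, Gja4, Gja5, Gjd3, where Gjc1 and Gja3 overlapped in every cohort but +dox, and Gja3 and Gja4 in the MBNL1, MBNL2, +/-dox and -dox cohorts. In the atria of +dox mice and of the MBNL cohorts the order was Gja1, Gja3, Gjc1, Gja5, Gja4, Gjd3, and the libraries of Gja5 and Gja4 overlapped in the 3 MBNL cohorts. In -dox and +/-dox atria Gja5 stood next to Gja1 and ahead of Gja3 and Gjc1, with a range that overlapped Gja3 in +/-dox mice. Without replicate 3 of the +/-dox atria, Gja3 ranked ahead of Gja5 there. In ventricles Gja4 ranked ahead of Gja3 without MBNL1 replicate 1, +/-dox replicate 1 or -dox replicate 3.

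The share of Gja5 in the sum of Gja1 and Gja5 TPM puts the pair on a scale that does not depend on library size. It was 5.91, 5.67 and 7.62% in +dox atria, 9.51, 11.87 and 15.13% in +/-dox atria and 21.2, 19.22 and 18.78% in -dox atria. The 3 ranges did not overlap. The means with MBNL1, MBNL2 and MBNL1+MBNL2 were 5.34 ± 0.82, 5.66 ± 1.41 and 4.58 ± 0.26% (SD, n = 3 each). The share was 13.3 percentage points higher in -dox and 5.77 points higher in +/-dox than in +dox atria, and 1.82 points lower with MBNL1+MBNL2, each with an exact permutation p of 0.1, the smallest that 3 libraries against 3 allow (two-sided; 0.2 after adjustment over 10 comparisons). In ventricles the group means of the share were 1.42 to 2.32%, and the share was 0.79 points higher with MBNL2 and 0.51 points higher with MBNL1+MBNL2 than in +dox mice (exact permutation p 0.1 each, 0.2 adjusted).

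**Figure D3:**
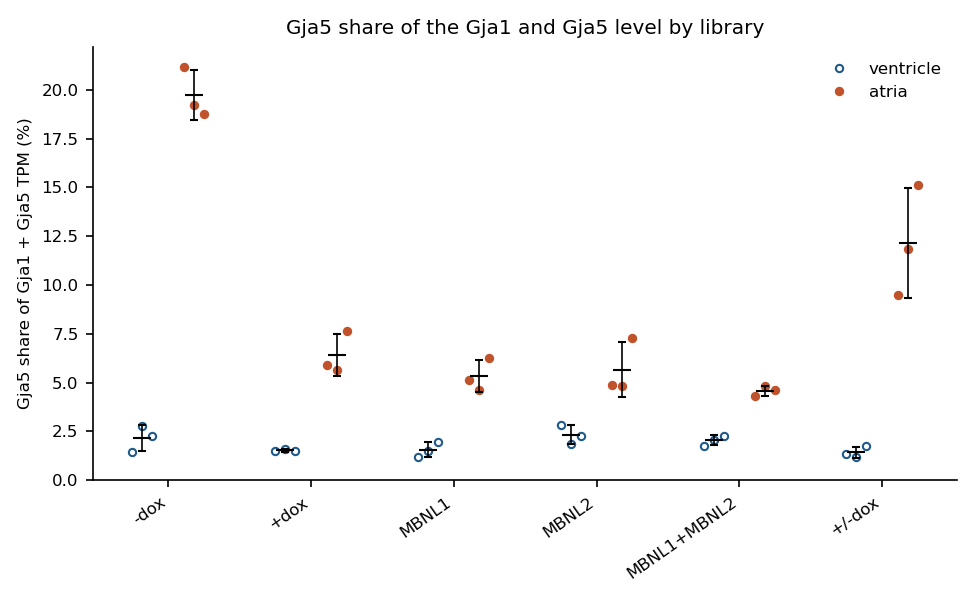
Gja5 as a percentage of summed Gja1 and Gja5 TPM (vertical axis) in each cohort, for ventricles and atria; points are libraries, and bars and whiskers are the mean and SD of 3. In atria the -dox libraries lie at 18.78 to 21.2% and the +/-dox libraries at 9.51 to 15.13%, above the +dox libraries at 5.67 to 7.62%, and the ventricular means lie at 1.42 to 2.32%.

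The summed TPM of the 6 members was led by Gja1. In atria it averaged 198 TPM in +dox, 277 TPM in +/-dox and 264 TPM in -dox mice, and 194 to 201 TPM in the MBNL cohorts. In ventricles it averaged 123 TPM with MBNL1+MBNL2 and 141 to 172 TPM in the other cohorts. Gja1 made up 66.9 to 73.6% of the sum in atria and 76.3 to 82.0% in ventricles as group means.

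Between chambers, Gja5 was higher in atria in all 6 cohorts. The excess over ventricles was 11.8-fold in -dox (interval 8.51 to 16.4), 9.86-fold in +/-dox, 3.56-fold in +dox, 3.19-fold with MBNL1, 2.54-fold with MBNL2 and 2.32-fold with both, all called (highest adjusted p 4.3e-05). The 4 lowest ratios were those of the cohorts with ongoing dox. Gja3 was 1.86-fold to 2.2-fold higher in atria in every cohort and was called in all 6.

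The test called 4 of the 6 members between the chambers in the -dox, +dox, MBNL1 and MBNL2 cohorts and 3 in the +/-dox and MBNL1+MBNL2 cohorts, where 21.7 to 25.3% of all genes were called (24.9% in -dox, 25.0% in +dox, 24.2% in +/-dox, 25.3% in MBNL1, 21.7% in MBNL2 and 24.1% in MBNL1+MBNL2). Gjd3 was called higher in atria in 5 cohorts. Its read ratio over 3 libraries each was 7.23 in +dox (exact interval 4.13 to 13.7). The ratio was 2.48 in +/-dox (1.22 to 5.46), where Gjd3 was not called (adjusted p 0.22). In -dox mice it was 28.9 (4.89 to 1173), from 38 atrial reads and 1 ventricular read. With at most 10 reads in a ventricular library, Gjd3 passed the filter through atria, so its chamber calls are not independent of the filter. Gjd3 lost its call in MBNL2 mice without ventricle MBNL2 replicate 2 (adjusted p 0.056) and in -dox mice on log2(TPM + 1), where the difference of 0.48 was under the fold cutoff. The intervals of Gjd3 cover counting error only.

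Gja4 was called lower in atria in 5 cohorts on normalized counts (log2 fold change -0.77 to -1.14) and was at -0.52 with MBNL1+MBNL2 (adjusted p 0.017). The call in MBNL1 mice was lost without ventricle MBNL1 replicate 2 (-0.57). On log2(TPM + 1), where the median of all genes moved by up to 0.32 towards atria, Gja4 was called in none of the cohorts and lay between -0.57 and 0.00. Gja1 and Gjc1 turned with the scale. On normalized counts the atrial minus ventricular log2 difference of Gja1 was -0.30 to 0.08 and that of Gjc1 -0.46 to -0.13, with no call, whereas on log2(TPM + 1) they were 0.24 to 0.62 and 0.08 to 0.36, and Gja1 was called higher in atria in -dox mice. No direction between chambers is therefore given for Gja1 and Gjc1.

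**Figure D4:**
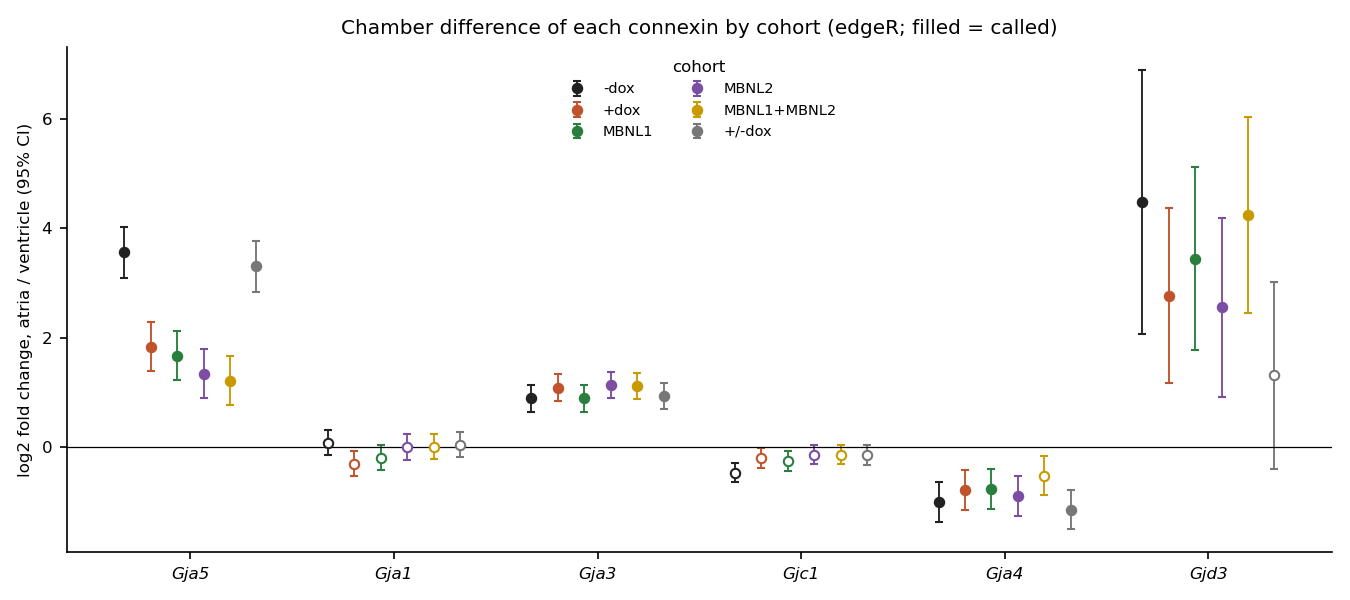
Log2 fold change of atria over ventricles (edgeR, normalized counts) for each connexin gene in the 6 cohorts; bars are 95% intervals and filled points were called. Gja5 runs from 1.22 in MBNL1+MBNL2 to 3.56 in -dox mice, Gja3 stays near 1, and Gja4 lies at -0.52 or below, while Gja1 (-0.30 to 0.08) and Gjc1 (-0.46 to -0.13) have no filled point.

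Markers of cells that express Gja5 were read beside its atrial rise, from +dox to -dox mice, a comparison that called 5.23% of all genes. The summed TPM of 6 atrial cardiomyocyte markers went from a range of 40301 to 43366 to one of 54391 to 57789, with 0 of 6 called. For 7 arterial endothelial markers the range went from 36.5 to 38.5 to one of 44.4 to 51.2 TPM, with 1 called (Bmx, log2 fold change 0.69, adjusted p 0.03), and for 10 endothelial markers from 359 to 419 to one of 456 to 559 TPM, with 0 called. For 6 Purkinje and bundle markers the ranges overlapped, at 34.7 to 42.1 and 36.6 to 43.3 TPM, with 1 called (Scn10a, a sodium channel gene, log2 fold change 0.92, adjusted p 0.027).

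These sums moved less than Gja5 itself, which was 4.97-fold higher, and their part in the Gja5 difference was not tested. Of 9 sinoatrial node markers, Tbx3 was called higher and Cacna1d, Cacna1g and Vsnl1 lower in -dox atria, beside 5.23% of all genes called. The summed TPM of these 9 went from 68.1 to 79.8 in +dox to 40.0 to 58.1 in -dox atria. The sum of 4 epicardial markers went from a range of 13.7 to 49.6 TPM to one of 55.0 to 92.2 TPM and that of 6 fibroblast markers from 1062 to 1334 TPM to 1416 to 1542 TPM, both without overlap, and their part in the Gja5 difference was likewise not tested. The sums of the 5 smooth muscle, 6 macrophage, 4 ventricular cardiomyocyte and 5 fat markers overlapped. None of the markers of these 6 lists was called in that comparison, and the 4 lung markers, none of them tested, summed to at most 0.3 TPM in atria.

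Among other connexin genes, Gja6, Gjb5 and Gjc3 passed the filter on low counts, and 0 of these 3 were called in any cohort against +dox in either chamber. Gjb5 exceeded 1 TPM in 3 libraries and was called higher in atria than in ventricles in all 6 cohorts, beside 21.7 to 25.3% of all genes. It averaged 0.59 TPM in atria and 0.019 TPM in ventricles. It thus passed the filter through the chamber where it was called higher, and these calls are no separate support. Of 3 pannexin genes, whose products form single-membrane channels, 2 were tested and 0 were called against +dox. Panx2 was called higher in atria in all 6 cohorts, averaging 9.83 TPM in +dox atria and 0.44 TPM in +dox ventricles.

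All 13 genes of connexin partners and turnover, which encode scaffold, adherens and desmosome proteins and enzymes that act on connexins, were tested. Jup, encoding the junction protein plakoglobin, was called higher in +/-dox ventricles (log2 fold change 0.67, adjusted p 4.5e-06), from a mean of 79.8 TPM in +dox to 126 TPM. Cav3, encoding muscle caveolin, was called lower in -dox atria (log2 fold change -0.63, adjusted p 0.00041), from 74.2 to 46.8 TPM. They were the 1 of 13 called in each of those comparisons, in which 6.6% and 5.23% of all genes were called, so the list's share was near that of all genes. In -dox ventricles and +/-dox atria 0 of 13 were called. The median log2 fold change of the list in -dox atria was -0.07, beside 0.03 over all genes.

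Of 15 connexin gene regulators, all transcription factor genes, 14 were tested, and the list's median log2 fold change in -dox atria was 0.22, beside 0.03 over all genes. The list's summed TPM averaged 374.6 in +dox and 375.1 in -dox atria. In -dox atria 2 of 14 were called, beside 5.23% of all genes, and 1 of 14 in -dox and in +/-dox ventricles, beside 7.6% and 6.6%. Tbx18 was called higher in -dox atria (log2 fold change 0.64, adjusted p 0.002; 3.01 to 4.55 TPM) and in -dox ventricles (0.65, adjusted p 0.0012). Tbx3, encoding a T-box repressor of the conduction system, was called higher in -dox atria (0.70, adjusted p 0.0053; 1.79 to 2.86 TPM), and Tbx2, encoding a related repressor, in +/-dox ventricles (0.73, adjusted p 0.017; 2.0 to 3.33 TPM). In +/-dox atria 0 of 14 were called. The activator genes Tbx5 and Gata4 averaged 99.97 and 61.2 TPM in +dox and 117.8 and 60.8 TPM in -dox atria (log2 fold changes 0.27 and 0.02, adjusted p 0.038 and 0.87), and neither was called.

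Among genes with a mean of at least 1 TPM in the chamber, the patterns most like that of atrial Gja5 over the 18 atrial libraries (of 13129 genes, Pearson r of log2 normalized counts) were those of Rab3b (r = 0.962), Lad1 (r = 0.961) and Rxfp1 (r = 0.957). Lad1 averaged 4.26 TPM in +dox, 17.4 TPM in +/-dox and 21.0 TPM in -dox atria. Rab3b averaged 0.44, 1.82 and 3.97 TPM and Rxfp1 3.95, 8.44 and 12.1 TPM in the same order. All 3 shared the order -dox over +/-dox over +dox of the means, which follows from their choice by correlation with Gja5 over these libraries. Rab3b averaged 0.44 to 0.64 TPM in the cohorts with ongoing dox and reached the 1 TPM limit only through -dox and +/-dox atria. The cohorts form separate clusters in these levels, and r within a cohort was not computed.

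For atrial Gja1 the nearest genes were Sbk2 (r = 0.943), Snrnp200 (r = 0.937) and Phf3 (r = 0.931). Sbk2 averaged 223 TPM in +dox, 389 TPM in +/-dox and 343 TPM in -dox atria. Its peak in +/-dox mice, shared with Gja1, likewise follows from the choice by correlation. In the 18 ventricular libraries (of 12258 genes) the nearest to Gja1 were Jade1 (r = 0.923), Ahrr (r = 0.899) and Acp6 (r = 0.843), and the nearest to Gja5, at 1.57 to 3.01 TPM there, were Ywhaq (r = 0.784), Armcx3 (r = 0.768) and Cmtm6 (r = 0.761). The libraries behind each r share cohorts, library ranges and depth.

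**Figure D5:**
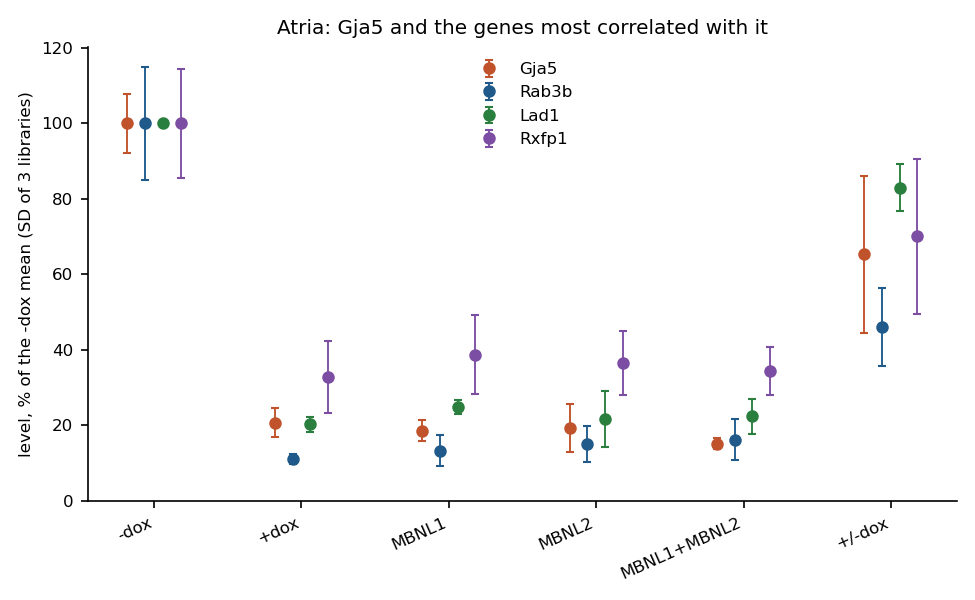
Atrial level of Gja5 and of the 3 genes whose pattern is most like it, Rab3b, Lad1 and Rxfp1, as a percentage of the gene's own -dox mean (vertical axis) in the 6 cohorts; points are means and whiskers SD of 3 libraries. The Gja5 mean is at 20.7% of -dox in +dox, 18.6% with MBNL1, 19.2% with MBNL2, 15.1% with both and 65.3% in +/-dox mice, and the means of the other genes are likewise higher in +/-dox than in the 4 cohorts with ongoing dox. The other genes were chosen by correlation with Gja5 over these libraries, so their likeness to it is not a separate result.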

How the data were processed

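Poly(A)-selected RNA of ventricles and atria of 3 mice per cohort was sequenced from stranded libraries as paired-end 150 bp reads, which the authors aligned to mm10 with STAR 2.7.10b and quantified per gene with RSEM 1.3.1. The deposited values are RSEM expected counts and, in a second table, deposited TPM, both for 55291 symbols; 96.4% of these matched the annotation used for positions. Library totals were 55031987 to 97091184 expected counts, and Gja5 held 226 to 549 reads per ventricular and 764 to 6787 per atrial library.

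Expected counts were rounded and tested with edgeR 4.0.16 (R 4.3.3; quasi-likelihood test, TMM, robust dispersions, default expression filter) in 1 fit of 12 group means over all 36 libraries, with Benjamini-Hochberg adjustment over 19231 genes. A call needs an adjusted p under 0.05 and a fold change of at least 1.5, the cutoffs of the study, which used DESeq2. There were 29 comparisons. TPM were used for levels, and shares were compared by two-sided exact permutation tests. Replicates differed by more than sampling noise (chi-square over degrees of freedom at least 10.3 in every pair). On simulated data for atria -dox against +dox (18582 genes), 36% of genes changed 1.5-fold, 80% of those changed 2-fold and 100% of those changed 4-fold were called. Among unchanged genes 4 were called. A 1.5-fold change lies at the fold cutoff itself, and 54% of those genes passed on the adjusted p alone. The changed genes were drawn from those above a minimum expected count, so the rates do not cover Gjd3, with its few reads.

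The text names the 6 members, genes of the lists (other connexins, pannexins, connexin partners and turnover, connexin gene regulators, cell type markers) called in -dox or +/-dox against +dox mice, and the 3 genes most correlated with Gja1 or Gja5 in each chamber; other list genes were named after their values were seen. The members and lists were chosen with earlier results of these data known. The study itself reports, with RT-qPCR, that dox withdrawal restored atrial Gja5 only in part and that the MBNL cohorts showed no rescue of it. It also lists fold changes of atrial Gja5 from this RNA-Seq, so the atrial Gja5 result here repeats one of the study. Alternatives were other size factors, no filter, DESeq2 1.42.0, limma 3.58.1 on log2(TPM + 1), no fold cutoff, a fit of the compared groups only, blocks, the library range as a term, set A only and each replicate left out. Promoter windows are RefSeq's for GRCm38.p6; Gjc1 and Gjd3 windows and protein sequences are not shown here. Intervals of read ratios cover counting error only. Some results on other connexin genes are not reported here.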

Additional observations from a re-analysis of the deposited data

Results flagged for a closer look

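The change of Gja5 from CUG960 +dox mice differed between atria and ventricles by a test of the difference itself, in edgeR's fit over all genes. For -dox mice the atrial log2 change exceeded the ventricular one by 1.73 (adjusted p 0.0023), with all 3 atrial -dox libraries above all 3 +dox libraries in TPM. The ventricular libraries overlapped in TPM but not in normalized counts, where -dox lay above +dox. For +/-dox mice the excess was 1.47 (adjusted p 0.02), a call that was lost when some single libraries were left out and in a fit of only the compared groups.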

How the results depend on the processing

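No called fold change of a member reversed under an alternative. Atrial Gja5 was called in -dox and +/-dox against +dox mice and in the 3 MBNL cohorts against +/-dox mice under every alternative run, at log2 fold changes of 2.16 to 2.42, 1.52 to 1.93, -2.10 to -1.66, -2.05 to -1.60 and -2.43 to -1.91. Its chamber difference for -dox held at 1.53 to 1.89. Apart from left-out replicates, 32 of 266 counts of members called differed from the reported count. In 16 of these the count differed by 1 and stayed within 1.5 times: 12 were counts between chambers, 2 were for +/-dox against +dox atria (3 without the fold cutoff or with limma) and 2 for MBNL1+MBNL2 against +/-dox atria (3 with only the compared groups or the replicate block). The other 16 follow. In ventricles -dox against +dox, 0 members became 1 with RLE size factors or DESeq2 (Gja5) and 1 without the fold cutoff (Gja3). Without the fold cutoff the count in ventricles became 1 for +/-dox against +dox (Gja1), 2 for MBNL1+MBNL2 against +dox (Gja3 and Gjc1) and 1 for MBNL2 against +/-dox (Gja1). With limma on log2(TPM + 1) it became 0 for MBNL1+MBNL2 against +/-dox ventricles. In atria -dox against +dox, 1 became 4 without the fold cutoff, 2 in set A and 2 with limma. For MBNL1 against +/-dox atria 1 became 2 without the fold cutoff, with only the compared groups or with limma, and for MBNL2 against +/-dox atria 2 without the fold cutoff or in set A. The chamber difference for +/-dox went from 1 to 0 with only the compared groups (Gja5 1.47, adjusted p 0.085). The causes were not tested.

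Leaving out each replicate gave ranges of 0 to 1 in ventricles -dox against +dox, MBNL2 against +/-dox and MBNL1+MBNL2 against +/-dox, of 1 to 2 in atria -dox against +dox, +/-dox against +dox and the 3 MBNL cohorts against +/-dox, of 0 to 1 for the chamber difference for +/-dox, and of 3 to 4 for atria against ventricles in MBNL1 and MBNL2 mice; the other counts did not change. In ventricles -dox against +dox the 1 was Gjd3 without +dox replicate 2 and Gja5 without -dox replicate 1 (0.78, adjusted p 0.018). Atrial Gja1 in +/-dox mice lost its call without +/-dox replicate 2 (0.58), and atrial Gja3 in -dox mice gained one without +dox replicate 3. The difference in Gja5 share from +dox in ventricles was 0.029 percentage points for MBNL1 (range -0.177 to 0.205, negative without replicate 3) and -0.10 points for +/-dox (range -0.268 to 0.020, positive without replicate 2).

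The replicate numbers were not taken as pairs in the main fit, so its tests between chambers leave out that the chambers share mice. Deviations of same-numbered ventricle and atria libraries of a cohort correlated at 0.041 to 0.26, with 11 of 18 over 0.1. Of the ventricular libraries 17 of 18, and of the atrial ones 16 of 18, correlated best with their own number, a hint from the data. In every cohort but MBNL1+MBNL2, replicate 3 was the only female by Xist in both chambers. Its ventricle and atria thus came from the same mouse. The labels do not tie the other libraries to a mouse. The replicate block within tissue changed 2 of 174 calls of a member, both gained for Gjd3 (34 called against 32): atria MBNL1+MBNL2 against +/-dox and atria against ventricles in +/-dox mice. A block over both chambers, added after the data were seen, changed no count.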
